A study of Mus musculus with 8 samples.

Results

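Epiblast stem cells (EpiSCs) were set against primordial germ cells (PGCs) that had been derived in culture from Gcnf-deficient embryonic stem cells (ESCs), to see which germ cell, naive and primed genes the 2 kinds of cell share. The members were chosen by the sample titles: EpiSC replicates 1 and 2, and the Gcnf-deficient PGCs of day 15 and day 12 of differentiation, which make 4 of the 8 arrays of the series. The titles and methods name no Gcnf deletion in the EpiSCs, and the sources used here do not say how they were derived and cultured. The Gcnf-deficient PGCs lacked both alleles of Gcnf (Nr6a1), came from female Gcnf-/- ESCs, and stand for 1 genotype with 1 array for each day, so that their spread also holds the difference between the days. The parent ESCs carried Oct4-GFP(ΔPE), a GFP reporter under an Oct4 promoter without its proximal enhancer, were kept on feeder cells with LIF, and were differentiated without either before GFP-positive cells were sorted. All samples are labelled C57BL/6 mouse. The cell type label reads PGC for all 8 samples, EpiSCs and ESCs included, so the groups were taken from the titles. The other 4 arrays (Gcnf-deficient and wt ESCs, and wt PGCs of day 15 and day 12, from lines of both sexes per the methods) were used for normalization and for values set beside the 4. Genotype, cell type, culture and sort cannot be told apart in this comparison, and in bulk RNA fewer cells of a type cannot be told from less RNA per cell.

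Pluripotent mouse cells exist in a naive state, that of the preimplantation epiblast and of ESCs kept with LIF, and in a primed state, that of the implanted epiblast and of EpiSCs. Both states use Oct4, Sox2 and Nanog, but naive cells add factors such as Esrrb, Klf2, Klf4 and Tbx3, whereas primed cells depend on FGF and activin and express genes such as Fgf5. PGCs arise from the epiblast and take up several naive genes again together with germ cell genes. GCNF is an orphan nuclear receptor that represses Oct4 when pluripotent cells differentiate.

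Levels are normalized log2 signals, so that a difference of 1 is 2-fold. A detection p under 0.01 was taken as detection of a probe, and the lowest detected signal of the 4 arrays lay between 5.67 and 6.03. Of 25697 probes, 11078 were detected on at least 2 of the 4 arrays and were tested with limma. All differences are EpiSC minus Gcnf-deficient PGC, and a gene is called higher or lower at a Benjamini-Hochberg adjusted p under 0.05. A gene is said to stand at a shared level where it was detected on all 4 arrays and the 95% confidence interval of its difference lay within 2-fold in either direction, since a p that misses the threshold does not show a shared level. For a gene undetected on both arrays of one side, a lower bound of the fold ("at least") was taken against the lowest detected signal of those arrays.

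EpiSCs and Gcnf-deficient PGCs differed widely. Of the 11078 probes, 5999 (54.2%) passed the test, 3163 higher and 2836 lower in EpiSCs, and 2124 of these were under 2-fold apart. Over 4-fold differences were found for 1593 probes, 714 higher and 879 lower. A shared level was found for 4084 of the 8578 probes detected on all 4 arrays. The EpiSC pair correlated at r = 0.981 across probes and had none of 9638 probes over 4-fold apart, and the Gcnf-deficient days correlated at r = 0.979 with 2 of 9848 probes over 4-fold apart. Across the 2 kinds of cell r lay between 0.909 and 0.914. Probes are not independent replicates, and these correlations describe the arrays only. The calls rest on 2 residual degrees of freedom, and without EpiSC replicate 1 the count of probes past the test was 3985.

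At the level of genes, 7704 were tested, each by its brightest probe. Of these 54.5% passed the test, with EpiSCs higher for 28.7% and lower for 25.8%. Of the 6099 genes detected on all 4 arrays, 27% were higher, 21.3% were lower and 47.9% stood at a shared level. These shares are the background for the counts of each gene list below. The median difference over all 16593 genes with a probe was 0.04.

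**Figure D1:**
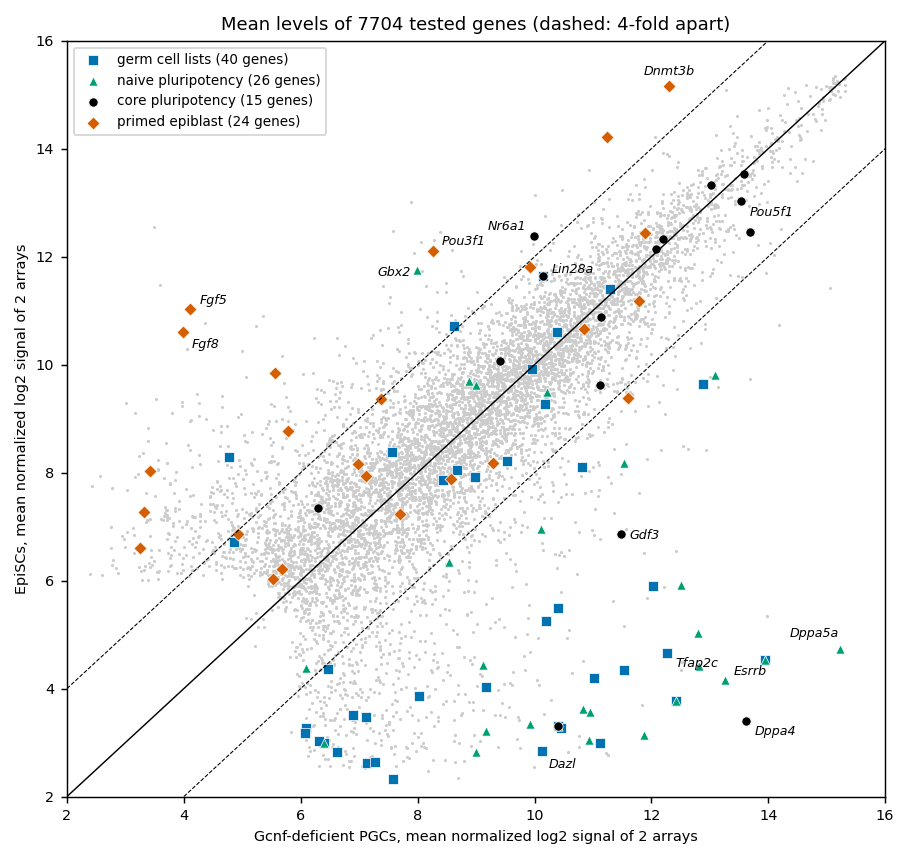
Mean normalized log2 signal of the 2 EpiSC arrays (vertical) against that of the 2 Gcnf-deficient PGC arrays (horizontal) for 7704 tested genes, with members of the germ cell, naive, core and primed lists marked and the dashed lines at 4-fold. Naive and germ cell genes lie at the lower right, most of them below an EpiSC signal of 6. The primed genes Fgf5 and Fgf8 lie at the upper left, and most core genes lie between the dashed lines.

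Most naive pluripotency genes were lower in EpiSCs. Of 27 list members with a probe, 26 were tested, and 23 were lower, 2 were higher and 1 did not pass the test, beside 25.8% of all tested genes that were lower. The median over the 27 was −6.18, against 0.04 over all genes, and it fell on a gene undetected in EpiSCs. It was −3.35 with members undetected on one side set at their bound and untested members at 0, and −1.46 over the 8 members detected on all 4 arrays. Over 4-fold lower were 21 of the 26, beside 8.06% of all tested genes, and 17 were detected on both Gcnf-deficient arrays and on neither EpiSC array, beside 8.35% of all tested genes. Genes of this kind entered the test through the side where they are high and so had to differ, and their count is a description. Of the 8 members detected on all 4 arrays, 5 were lower and 2 were higher.

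Dppa5a, an RNA-binding protein gene of naive ESCs, gave 4.06 and 5.39 in EpiSCs, against 15.34 on day 15 and 15.12 on day 12 in Gcnf-deficient PGCs. It was at least 614-fold lower in EpiSCs (fitted difference −10.50 ± 0.45, SE; adjusted p = 0.000188), and the groups lay far apart. Esrrb, the orphan nuclear receptor that sustains naive self-renewal, gave 3.73 and 4.58 in EpiSCs, against 13.17 and 13.34 in Gcnf-deficient PGCs (at least 156-fold lower). Klf2, a Krüppel-like factor of the naive network, gave 5.47 and 4.58 in EpiSCs, against 12.85 and 12.76 in Gcnf-deficient PGCs. Its relative Klf4 gave 3.46 and 3.65 in EpiSCs, against 11.13 and 10.76 in Gcnf-deficient PGCs. Klf2 and Klf4 were thus undetected in EpiSCs and were at least 114-fold and 31.4-fold lower there.

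Tbx3, a T-box factor downstream of LIF, gave 2.84 and 3.25 in EpiSCs, against 10.85 and 11.01 in Gcnf-deficient PGCs. Zfp42 (Rex1), the classic marker of naive cells, gave 6.24 and 5.61 in EpiSCs, the brighter of them just above detection, against 12.48 and 12.53 in Gcnf-deficient PGCs (difference −6.58 ± 0.25). Fbxo15, an Oct4 target, was at least 115-fold lower in EpiSCs, and Nr5a2, the nuclear receptor that binds the Oct4 enhancers, at least 9.14-fold lower. These genes were thus higher in the Gcnf-deficient PGCs on both days. Klf5, a further Krüppel-like factor of the naive list, was detected in EpiSCs and gave 8.27 and 8.11 in EpiSCs, against 11.29 and 11.78 in Gcnf-deficient PGCs.

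Not all naive genes followed this order. Gbx2, a homeobox gene that is a STAT3 target, gave 11.92 and 11.57 in EpiSCs, against 8.01 and 7.97 in Gcnf-deficient PGCs (difference 3.75 ± 0.18, adjusted p = 0.000227). Eras, an ESC-expressed Ras, was higher in EpiSCs by 0.81, a call that was lost without EpiSC replicate 1 (adjusted p = 0.101) or 2 (0.0857). The LIF pathway itself was split. Of its receptor subunits, Il6st was lower in EpiSCs (−2.20), and Lifr was undetected there and close to the limit in Gcnf-deficient PGCs (6.22 and 5.95, at least 1.08-fold lower). Also lower was Socs3, its feedback inhibitor (−0.72), whose call was lost without EpiSC replicate 1 (adjusted p = 0.0638) or 2 (0.0897). Stat3, its transcription factor, gave 9.77 and 9.46 in EpiSCs, against 8.75 and 9.26 in Gcnf-deficient PGCs, and did not pass the test (adjusted p = 0.0828).

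The naive genes were not particular to the Gcnf-deficient cells. Summed over the 27 members, the linear normalized signal was 8143 and 6944 in EpiSCs, 126008 on day 15 and 112645 on day 12 in Gcnf-deficient PGCs, and 114104 and 110102 on the same days in wt PGCs. Of the 27 members, 8 were detected on both EpiSC arrays, 26 on both Gcnf-deficient PGC arrays and 25 on both wt PGC arrays. Esrrb, for example, gave 13.50 and 13.22 in wt PGCs. Undifferentiated ESCs, Gcnf-deficient and wt, gave 12.95 and 13.42 for Esrrb, 12.20 and 12.79 for Zfp42, and 10.85 and 10.83 for Klf4. Not all members were alike, as Aire gave 8.80 and 4.43 in ESCs, against 10.72 and 10.94 in Gcnf-deficient PGCs. Whether PGCs kept or regained these levels was not tested.

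**Figure D2:**
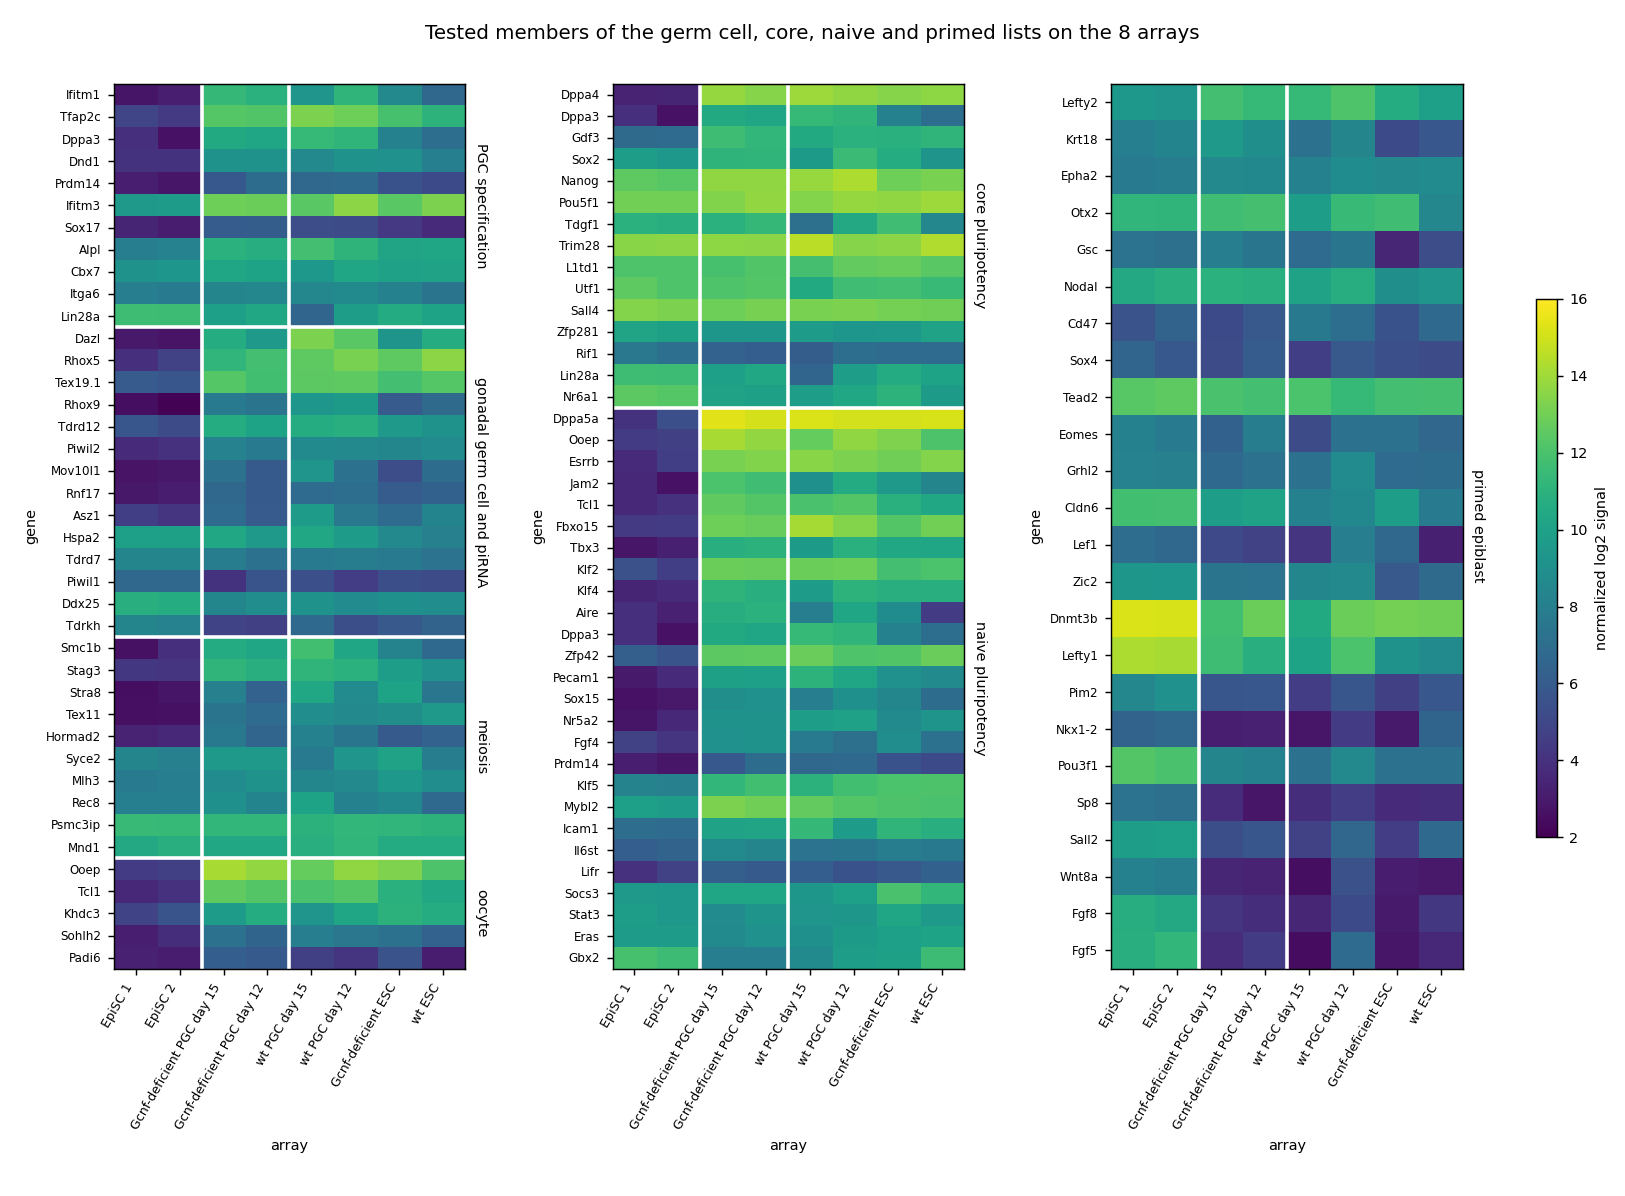
Normalized log2 signal (colour) of every tested member of the germ cell, core, naive and primed lists on the 8 arrays, one row per gene and one column per array. In most naive and germ cell rows the 2 EpiSC columns are darker than the other 6, and in the primed rows for Fgf5, Fgf8, Wnt8a and Sp8 the EpiSC columns are the light ones.

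Core pluripotency genes were split between shared and differing levels. Of 16 members with a probe, 15 were tested, and 4 were higher, 5 were lower and 6 did not pass the test. Of all tested genes, 28.7% were higher and 25.8% were lower. The list counts Nr6a1, the gene deleted in these PGCs, among the 4 higher members. At a shared level stood Pou5f1, Tdgf1, Trim28, L1td1, Utf1 and Sall4, which is 6 of the 13 detected on all 4 arrays and near the 47.9% of all genes. The median difference over the 16 was 0.0079.

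Pou5f1 (Oct4), whose promoter drives the reporter used to sort the PGCs, gave 13.02 and 13.03 in EpiSCs, against 13.36 and 13.70 in Gcnf-deficient PGCs. Its difference of −0.51 (95% confidence interval −0.97 to −0.04) lay within 2-fold and did not pass the test (adjusted p = 0.065), but it did pass under 7 of the 15 alternative settings. The stretch of the Pou5f1 promoter that holds a site of the kind GCNF binds is shown because this is the gene GCNF is known to repress. The window is that of RefSeq on build GRCm38.p6, chr17:35505959-35506050, plus strand, and the capitals mark the half-site AGGTCA followed with no gap by AGGCTA, 33 bases before the start of the gene.

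Pou5f1 promoter: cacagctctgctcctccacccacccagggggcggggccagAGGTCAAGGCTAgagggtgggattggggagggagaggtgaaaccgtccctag

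The letters AGGTCAAGG, searched on both strands, stand in the promoter windows of 99 of 27025 genes (0.366%). Among the lists they were found in 1 of 11 core genes with a window, Pou5f1, and in none of the germ cell, naive and primed lists. The full repeat AGGTCAAGGTCA was found for 1 of the 27025 genes. A match is a description of the letters and not evidence of binding in these cells.

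Nanog, the homeobox factor of the pluripotent core, gave 12.53 and 12.37 in EpiSCs, against 13.70 and 13.67 in Gcnf-deficient PGCs, and was lower in EpiSCs by 1.24 on the log2 scale (adjusted p = 0.00253). Sox2, the partner of Oct4, gave 9.80 and 9.45 in EpiSCs, against 11.10 and 11.16 in Gcnf-deficient PGCs (adjusted p = 0.00244). Both were thus detected in the 2 kinds of cell at different levels, with no overlap between groups. Dppa4, a chromatin protein gene of pluripotent cells, was undetected in EpiSCs, where it gave 3.36 and 3.46, against 13.77 and 13.46 in Gcnf-deficient PGCs, at least 199.8-fold lower. All 3 Dppa4 probes were lower in EpiSCs, with differences between −10.21 and −4.59. Gdf3, a TGF-β ligand of pluripotent cells, was lower in EpiSCs by 4.61 on the log2 scale.

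Nr6a1 itself gave 12.46 and 12.31 in EpiSCs, against 10.05 and 9.94 in Gcnf-deficient PGCs (difference 2.39 ± 0.15, adjusted p = 0.000453). It gave 9.83 and 10.38 in wt PGCs, and Gcnf-deficient minus wt PGCs was −0.11 (adjusted p = 0.909). The sources used here do not say whether the probe lies in the deleted part of the gene, so that it checks nothing about the genotype. Rif1, a telomere and replication timing factor, was higher in EpiSCs by 1.06, and Zfp281, a zinc finger partner of Nanog, by 0.66. Both calls were lost without EpiSC replicate 1 (adjusted p = 0.0622 for Rif1 and 0.128 for Zfp281), and that of Zfp281 also without replicate 2 (0.07).

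Of the 5 genes picked as markers for this comparison, Tdgf1 stood at a shared level and the other 4 differed. Tdgf1 (Cripto), the Nodal co-receptor, gave 10.93 and 10.84 in EpiSCs, against 10.96 and 11.32 in Gcnf-deficient PGCs (difference −0.25, 95% confidence interval −0.73 to 0.23). Emb (embigin), a membrane chaperone of monocarboxylate transporters, gave 13.15 and 13.17 in EpiSCs, against 11.72 and 11.54 in Gcnf-deficient PGCs (difference 1.53 ± 0.15, adjusted p = 0.00141). Lin28a, the RNA-binding protein that blocks let-7 maturation, gave 11.66 and 11.61 in EpiSCs, against 9.88 and 10.39 in Gcnf-deficient PGCs (adjusted p = 0.00411). Emb and Lin28a were thus detected in both, 2.89-fold and 2.82-fold higher in EpiSCs. Slc1a3, a glutamate transporter, gave 11.18 and 11.12 in EpiSCs, against 7.13 and 7.89 in Gcnf-deficient PGCs (difference 3.64 ± 0.28). Dppa3 (Stella), a maternal and PGC factor that protects imprints, gave 3.91 and 2.70 in EpiSCs, against 10.52 and 10.28 in Gcnf-deficient PGCs, at least 21.5-fold lower.

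In wt PGCs all but Dppa3 of these genes were uneven between days. Emb gave 3.85 on day 15 and 11.06 on day 12, Tdgf1 7.17 and 10.44, Lin28a 6.55 and 9.85, and Slc1a3 3.07 and 6.64, whereas Dppa3 gave 11.38 and 11.17. Gcnf-deficient PGCs exceeded the wt mean by 4.17 for Emb, 2.33 for Tdgf1, 1.94 for Lin28a and 2.65 for Slc1a3, the difference for Dppa3 was −0.88, and none of these differences passed the test (limma, Gcnf-deficient minus wt PGCs, adjusted p between 0.479 and 0.569). The day-12 wt array also differed from the day-15 wt array in the Y-linked Eif2s3y (11.64 against 2.82), and the part of this in the spread of wt PGCs was not tested.

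**Figure D3:**
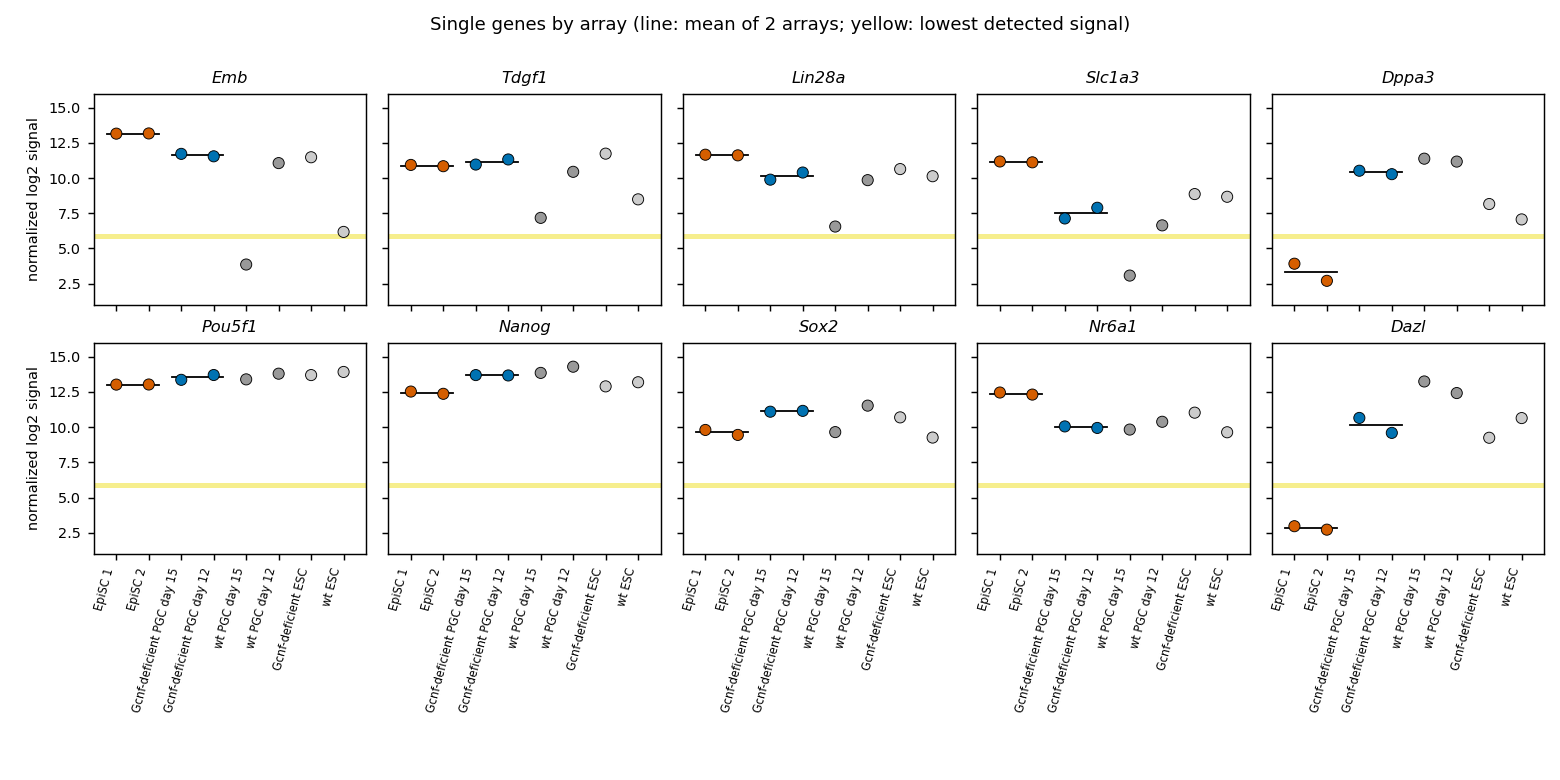
Normalized log2 signal (vertical) of 10 genes on each of the 8 arrays, with EpiSCs first, then Gcnf-deficient PGCs, wt PGCs and ESCs; lines are means of 2 arrays and the yellow band is the range of the lowest detected signals. Tdgf1 and Pou5f1 sit at about the same height in EpiSCs and Gcnf-deficient PGCs, and for Dppa3 and Dazl the EpiSC points sit below the band.

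Primed epiblast genes were mostly higher in EpiSCs, but several were held by the Gcnf-deficient PGCs. Of 35 members with a probe, 24 were tested, and 15 were higher, 4 were lower and 5 did not pass the test, beside 28.7% of all tested genes that were higher. The median over the 35 was 1.53, 0.49 with the bounds used in the same way and 0.69 over the members detected on all 4 arrays. Over 4-fold higher were 10 of the 24, beside 6.45% of all tested genes, and 7 were detected on both EpiSC arrays and on neither Gcnf-deficient array, beside 5.63%. These 7 entered the test through the EpiSC side and so had to differ, and their count is a description. Of the 14 detected on all 4 arrays, 7 were higher and 4 were lower, beside 27% and 21.3% of all genes so detected. Summed over the 35 members, the linear signal was 82873 and 81058 in EpiSCs, against 22922 and 24348 in Gcnf-deficient PGCs, and it was 13457 and 26956 in wt PGCs. A linear sum mostly follows its brightest members, which in EpiSCs were Dnmt3b (15.19 and 15.14) and Lefty1 (14.27 and 14.16).

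Fgf5, the FGF that marks the implanted epiblast, gave 10.81 and 11.25 in EpiSCs, against 3.80 and 4.42 in Gcnf-deficient PGCs, at least 37.7-fold higher in EpiSCs (adjusted p = 0.000182). Fgf8, an FGF of the gastrulating epiblast, gave 10.73 and 10.48 in EpiSCs, against 4.15 and 3.82 in Gcnf-deficient PGCs (at least 28.1-fold higher). Pou3f1 (Oct6), a POU factor of the primed state, gave 12.24 and 11.99 in EpiSCs, against 8.37 and 8.15 in Gcnf-deficient PGCs. Pou3f1 was thus present in both, 3.85 apart on the log2 scale. Dnmt3b, the de novo DNA methyltransferase of the epiblast, gave 15.19 and 15.14 in EpiSCs, against 11.74 and 12.84 in Gcnf-deficient PGCs (difference 2.87 ± 0.38). Lefty1, a Nodal antagonist, gave 14.27 and 14.16 in EpiSCs, against 11.64 and 10.85 in Gcnf-deficient PGCs. Wnt8a, a Wnt ligand of the epiblast, Sp8, a zinc finger factor, Sall2, a relative of Sall4, and Nkx1-2, a homeobox gene, were detected in EpiSCs and not in Gcnf-deficient PGCs, at least 4.72-fold, 2.79-fold, 16.5-fold and 1.75-fold higher.

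Other primed genes were not higher in EpiSCs, or only slightly. Otx2, the homeobox factor that drives exit from the naive state, gave 11.21 and 11.17 in EpiSCs, against 11.70 and 11.88 in Gcnf-deficient PGCs. Its difference of −0.60 was called lower, and its interval lay only just within 2-fold. The call was lost without EpiSC replicate 1 (adjusted p = 0.118), without EpiSC replicate 2 (0.134), without day 12 (0.0654), with median scaling (0.14) and without a detection filter (0.148). Nodal, the TGF-β ligand of the epiblast, gave 10.47 and 10.85 in EpiSCs, against 10.93 and 10.77 in Gcnf-deficient PGCs, and Tead2, a partner of YAP, was higher in EpiSCs by 0.55, within 2-fold, a call that was lost without any single one of the 4 arrays (adjusted p between 0.0544 and 0.219). Lefty2, a target and antagonist of Nodal, was lower in EpiSCs by 2.23 on the log2 scale. For Eomes, a T-box factor, and Gsc, a homeobox gene of the primitive streak, no statement can be made: they did not pass the test (differences 0.82 and −0.46), and their intervals reached beyond 2-fold. Levels in wt PGCs were close to these for Nodal (10.07 and 10.72), while Otx2 gave 9.87 on day 15 and 11.47 on day 12 there.

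**Figure D4:**
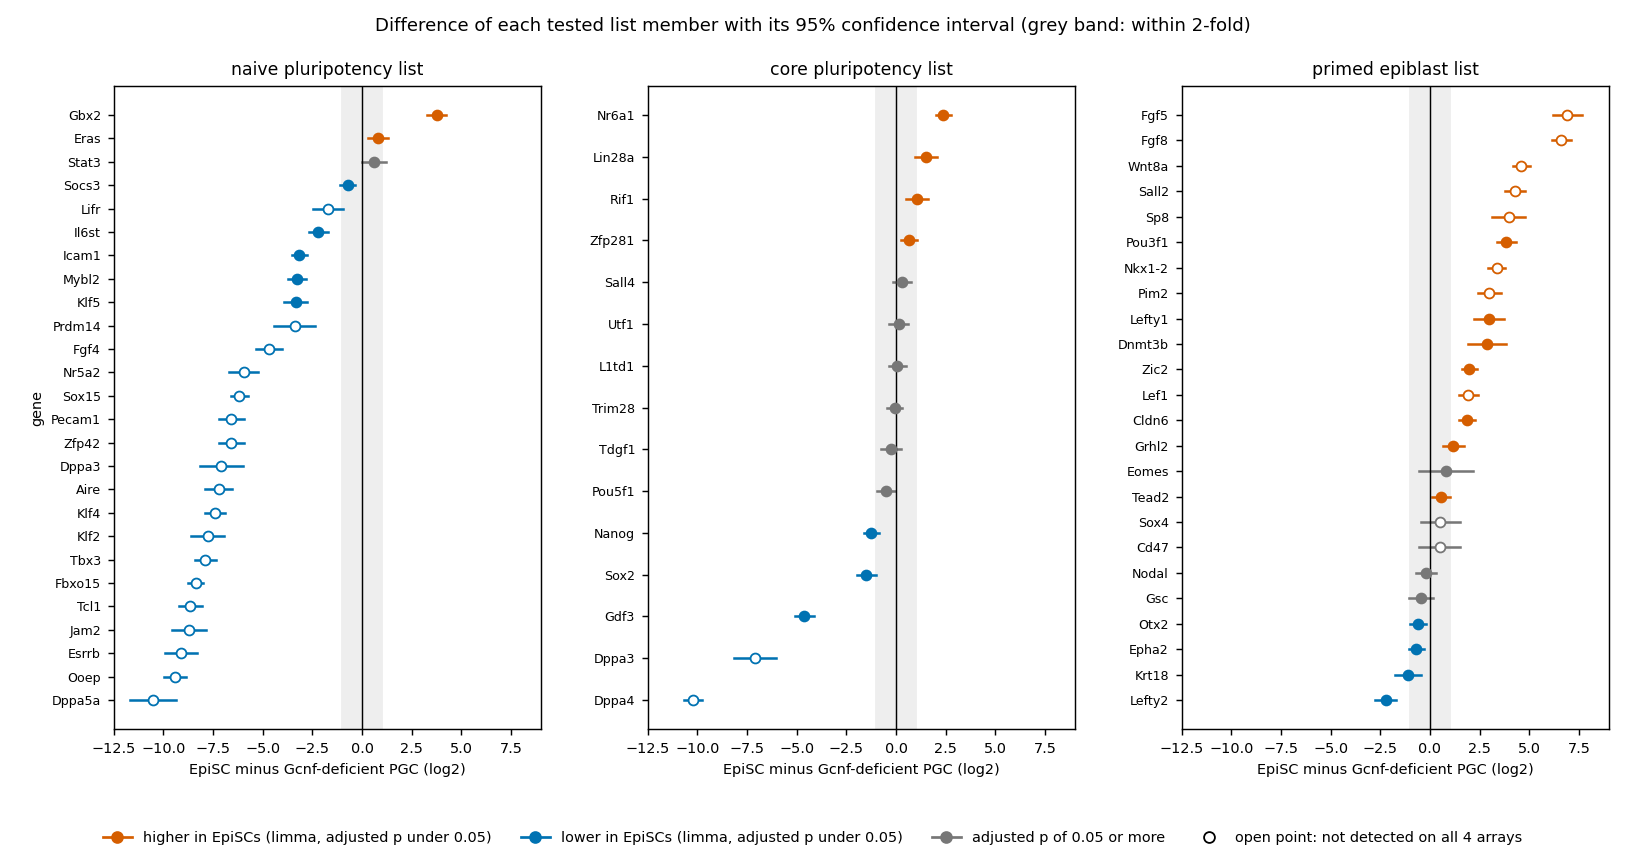
Difference of EpiSCs minus Gcnf-deficient PGCs (log2, horizontal) with its 95% confidence interval for each tested member of the naive, core and primed lists; the grey band is 2-fold in either direction and open points were not detected on all 4 arrays. Most naive genes lie far left of the band, down to −10.50 for Dppa5a. Core genes run from −10.21 (Dppa4) to 2.39 (Nr6a1), with 6 at a shared level. Primed genes run from −2.23 (Lefty2) to 6.92 (Fgf5).

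Germ cell genes that were detected were mostly lower in EpiSCs, and many were detected in neither kind of cell. In the 4 germ cell lists together, 83 genes had a probe and 40 were tested. Of the 40, 31 were lower in EpiSCs, beside 25.8% of all tested genes, 4 were higher and 5 did not pass the test. Over 4-fold lower were 27, beside 8.06% of all tested genes. Both Gcnf-deficient arrays and neither EpiSC array detected 24, beside 8.35% of all tested genes, and these again had to differ. The median over all 83 was −0.63 and it was 0 with the bounds used as above, and 36 of the 83 were detected on none of the 4 arrays. Of the 13 detected on all 4 arrays, 6 were lower, 2 were higher and 3 stood at a shared level. Several of these genes are also naive genes or are expressed in ESCs: Dppa3, Prdm14, Ooep and Tcl1 stood on both kinds of list.

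Of the PGC specification genes, 15 had a probe and 11 were tested, with 10 lower and 1, Lin28a, higher in EpiSCs (median over the 15, −2.72, or −0.59 with the bounds). Of all tested genes, 25.8% were lower and 28.7% were higher. Of the 10 lower members, 6 were undetected in EpiSCs and so had to differ. Of the 5 members detected on all 4 arrays, 4 were lower. Tfap2c, the AP-2γ factor needed for PGC formation, gave 4.94 and 4.39 in EpiSCs, against 12.32 and 12.20 in Gcnf-deficient PGCs, at least 78.4-fold lower. Prdm14, the PR-domain factor of PGC specification and of naive cells, gave 3.16 and 2.84 in EpiSCs, against 5.84 and 6.96 in Gcnf-deficient PGCs. It was only weakly detected there, at least 1.34-fold lower in EpiSCs. Ifitm1 and Ifitm3, interferon-induced membrane protein genes of early PGCs, were also lower, Ifitm1 at least 35.5-fold and Ifitm3, detected on all 4 arrays, with a difference of −3.23. Dnd1, an RNA-binding protein that PGCs need to survive, gave 4.04 and 4.03 in EpiSCs, against 9.16 and 9.18 in Gcnf-deficient PGCs. Alpl, the alkaline phosphatase used to stain PGCs, was lower in EpiSCs by 2.72 on the log2 scale. These markers met the label of the PGCs only in part. In undifferentiated ESCs, Gcnf-deficient and wt, Tfap2c gave 11.94 and 11.08, Dnd1 9.10 and 8.06, Ifitm3 12.41 and 13.23, and Alpl 10.17 and 10.27. They were thus high in ESCs too. Ifitm1 gave less in ESCs (8.61 and 6.65) than in Gcnf-deficient PGCs (11.32 and 10.92). The difference between PGCs and ESCs was not tested. Prdm1 (Blimp1), the factor that starts PGC specification, was undetected on the 4 arrays (2.75 and 2.81 in EpiSCs, 4.50 and 4.80 in Gcnf-deficient PGCs). Nanos3, an RNA-binding protein of PGCs, was detected on day 15 alone (5.94).

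The gonadal germ cell and piRNA genes had 24 members with a probe and 14 tested, with 9 lower and 3 higher in EpiSCs. Of all tested genes, 25.8% were lower and 28.7% were higher. The 3 members detected on all 4 arrays had a median of 0.83, of the opposite sign to that over the 24 (−1.36). Of the 9 lower members, 8 were undetected in EpiSCs, and 2 of the 3 higher members were undetected in Gcnf-deficient PGCs. These again had to differ. Dazl, the RNA-binding protein that licenses germ cells, gave 2.96 and 2.72 in EpiSCs, against 10.66 and 9.59 in Gcnf-deficient PGCs, at least 17.8-fold lower (adjusted p = 0.000257). It gave more in wt PGCs, 13.25 and 12.42, but the difference of Gcnf-deficient minus wt PGCs, −2.71 ± 0.50, did not pass the test (adjusted p = 0.309). Rhox5, an X-linked homeobox gene, Tex19.1, a silencer of retrotransposons, and Tdrd12, a piRNA factor, were lower in EpiSCs too, Rhox5 at least 47.1-fold, Tdrd12 at least 21.7-fold and Tex19.1, detected on 1 EpiSC array, with a difference of −6.12. Piwil2 (Mili), a PIWI protein, gave 3.73 and 3.98 in EpiSCs, against 8.22 and 7.84 in Gcnf-deficient PGCs. Ddx4 (Vasa), the germ cell helicase, was detected on 1 of the 4 arrays and was not tested, at 3.28 and 2.80 in EpiSCs, against 6.39 and 5.47 in Gcnf-deficient PGCs.

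A few genes of this list ran the other way. Tdrkh, a Tudor protein of piRNA trimming, gave 8.36 and 8.21 in EpiSCs, against 4.86 and 4.68 in Gcnf-deficient PGCs, at least 5.63-fold higher in EpiSCs. Ddx25, a testis helicase, gave 10.77 and 10.67 in EpiSCs, against 8.42 and 8.84 in Gcnf-deficient PGCs. Piwil1 (Miwi) was at least 1.90-fold higher in EpiSCs, a call that was lost when either EpiSC array was left out (adjusted p between 0.093 and 0.094). Hspa2, a testis-enriched chaperone, stood at a shared level (9.90 and 9.94 in EpiSCs, 10.33 and 9.59 in Gcnf-deficient PGCs).

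Of the meiosis genes, 22 had a probe and 10 were tested, with 7 lower in EpiSCs and none higher. Of all tested genes, 25.8% were lower and 28.7% were higher. Of the 7, 5 were undetected in EpiSCs and so had to differ. Of the 5 members detected on all 4 arrays, 2 were lower and 3 did not pass the test. Stag3, the meiotic cohesin subunit, gave 4.29 and 4.11 in EpiSCs, against 11.18 and 10.84 in Gcnf-deficient PGCs, at least 33-fold lower, and its partner Smc1b gave 2.63 and 3.89 in EpiSCs, against 10.61 and 10.30 in Gcnf-deficient PGCs. Stra8, which retinoic acid induces at the onset of meiosis, gave 2.51 and 2.77 in EpiSCs, against 8.12 on day 15 and 6.43 on day 12 in Gcnf-deficient PGCs. Tex11, an X-linked crossover factor, and Hormad2, an axis protein, were at least 2.24-fold and 2.22-fold lower. Probes for several genes that build the synapsed chromosome gave no detected signal in either, which does not show that the genes were silent: Sycp1, Sycp2, Sycp3, Dmc1 and Spo11 were detected on fewer than 2 of the 4 arrays, and Sycp3 gave 2.36 and 2.88 in EpiSCs, against 2.31 and 2.99 in Gcnf-deficient PGCs. Syce2, a central element protein, was an exception, detected on all 4 arrays and lower in EpiSCs by 1.31 on the log2 scale. Psmc3ip and Mnd1, partners in homologous recombination, stood at a shared level (differences 0.11 and 0.22).

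Promoters of 3 of these lower germ cell genes are shown because they hold CACGTG, the palindromic E-box letters, which were frequent in the gonadal and meiosis lists. The windows are those of RefSeq on build GRCm38.p6, all on the plus strand, and the capitals mark the E-box: Stag3 at chr5:138280299-138280384, Mov10l1, a piRNA helicase, at chr15:88982744-88982793, and Syce2 at chr8:84872130-84872215.

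Stag3 promoter: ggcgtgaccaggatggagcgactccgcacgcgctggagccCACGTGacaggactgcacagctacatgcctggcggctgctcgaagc

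Mov10l1 promoter: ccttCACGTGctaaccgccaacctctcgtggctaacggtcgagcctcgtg

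Syce2 promoter: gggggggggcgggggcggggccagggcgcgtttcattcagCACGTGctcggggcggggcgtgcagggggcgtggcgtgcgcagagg

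CACGTG stood in the windows of 2187 of 27025 genes (8.09%). It was found for 7 of 19 gonadal germ cell genes: Ddx25, Ddx4, Mael, Mov10l1, Piwil1, Taf7l and Tdrd1. Of these, Ddx25 and Piwil1 were higher in EpiSCs, Mov10l1 was lower and the others were not tested. CACGTG was found for 6 of 19 meiosis genes, among them Sycp1 and Sycp3, but for none of 9 PGC specification genes and 2 of 15 oocyte genes. Outside the germ line, the highest shares were 4 of 12 for DNA methylation and 3 of 10 for immediate early genes. The other lists ran from 0 of 11 for fibroblast genes to 1 of 4 for Y-linked and X inactivation genes. Neural genes, for example, had 1 of 15 and endoderm genes 1 of 14. It was found for 3 of the 21 germ cell genes called lower in EpiSCs that had a window (14.3%), for 1 of 15 lower naive genes and for 2 of 9 higher primed genes. Some germ cell genes with the letters, such as Mael, Sycp1 and Sycp3, were thus not detected on enough arrays to be tested. No test was made, and a match says nothing of a bound factor.

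Oocyte genes had 22 members with a probe, and the 5 that were tested were all lower in EpiSCs, beside 25.8% of all tested genes. All 5 were detected on both Gcnf-deficient arrays and on neither EpiSC array and so had to differ. Ooep, a protein of the oocyte subcortical complex, gave 4.41 and 4.66 in EpiSCs, against 14.15 and 13.73 in Gcnf-deficient PGCs, at least 251-fold lower. Tcl1, an AKT coactivator, gave 3.55 and 3.98 in EpiSCs, against 12.58 and 12.25 in Gcnf-deficient PGCs. Khdc3, a partner of Ooep, was at least 18.8-fold lower and Sohlh2, a helix-loop-helix factor of oocytes, at least 1.90-fold lower. Padi6 was barely detected in the Gcnf-deficient PGCs (6.16 and 5.98). Zp1, Zp2 and Zp3 (the egg coat), Gdf9 and Bmp15 (oocyte growth factors) and Figla and Nobox (oocyte transcription factors) were detected on fewer than 2 arrays.

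Several of these germ cell genes were not particular to the PGCs. In undifferentiated ESCs, Gcnf-deficient and wt, Dppa3 gave 8.15 and 7.06, Dazl 9.25 and 10.64, Stra8 10.14 and 7.47, and Ooep 13.28 and 12.10. Summed over the gonadal list, the linear signal was 3815 and 3710 in EpiSCs, 13800 and 11307 in Gcnf-deficient PGCs, and 29056 and 26537 in wt PGCs.

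**Figure D5:**
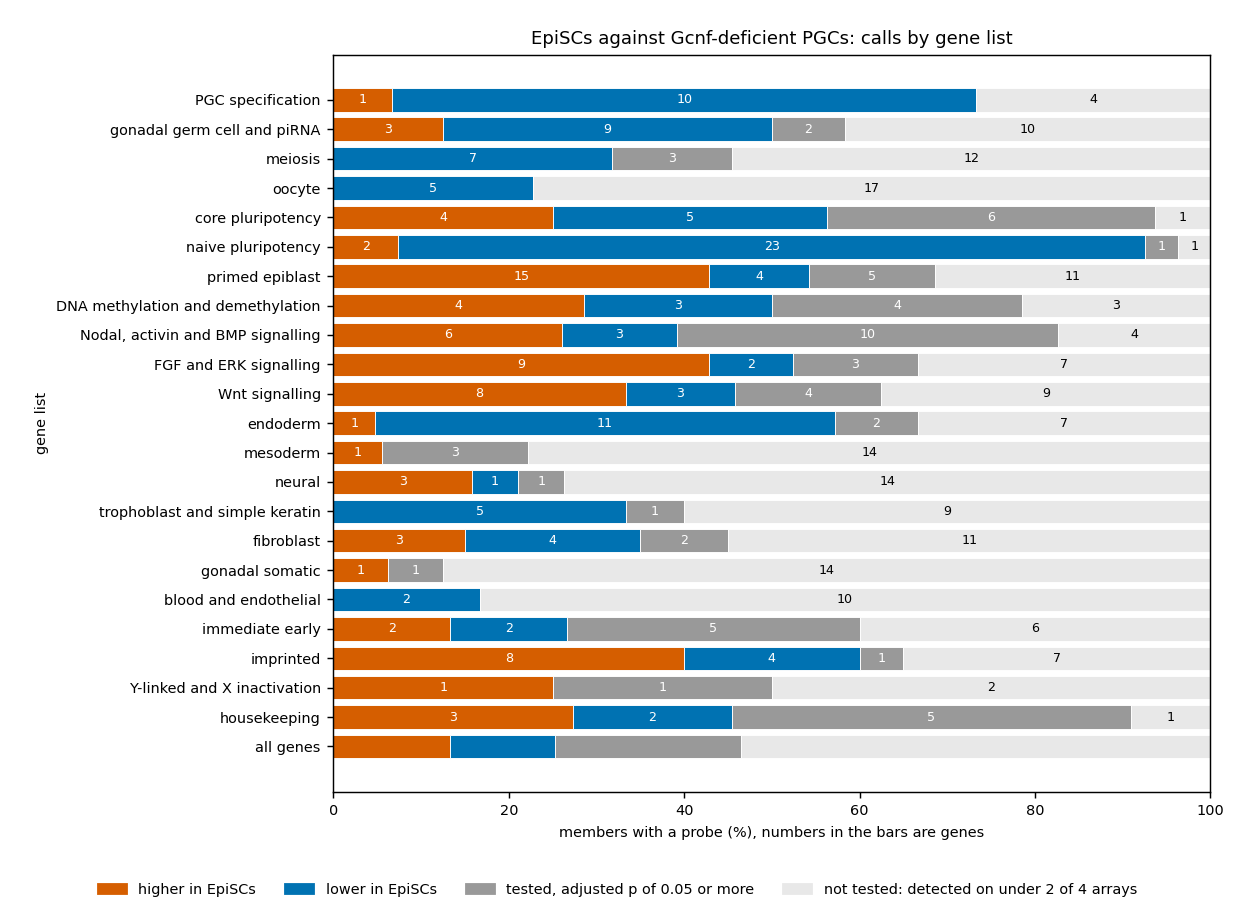
Share of the members with a probe (%, horizontal) of each gene list that were higher or lower in EpiSCs than in Gcnf-deficient PGCs, did not pass the test, or were detected on fewer than 2 of the 4 arrays; the numbers in the bars count genes. The naive bar is nearly all lower (23 of 27), the primed bar holds 15 higher genes, and the untested share is large in the oocyte (17 of 22) and meiosis (12 of 22) bars.

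Calls of signalling genes are given by pathway, beside 28.7% of all tested genes that were higher and 25.8% that were lower. Of the 14 tested FGF and ERK genes, 9 were higher and 2 were lower in EpiSCs. Of the 9 higher genes, 3 were undetected in Gcnf-deficient PGCs and so had to differ. Of the 9 genes detected on all 4 arrays, 5 were higher and 1 was lower. Besides Fgf5 and Fgf8, Fgf15 gave 10.38 and 10.60 in EpiSCs, against 6.12 and 6.34 in Gcnf-deficient PGCs, and the ERK phosphatase Dusp6 gave 12.62 and 12.55 in EpiSCs, against 10.49 and 10.41 in Gcnf-deficient PGCs. Etv1, an ETS factor of the FGF response, was at least 9.03-fold higher in EpiSCs. Fgf4, the FGF that ESCs secrete, ran the other way, at 4.78 and 4.10 in EpiSCs, against 9.10 and 9.15 in Gcnf-deficient PGCs.

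Wnt pathway genes had 15 tested members, of which 8 were higher and 3 were lower in EpiSCs, beside 28.7% and 25.8% of all tested genes. Of the 15, 5 were detected on both EpiSC arrays and on neither Gcnf-deficient array, and so entered the test through the EpiSC side. Of the 8 detected on all 4 arrays, 3 were higher and 2 were lower. The receptor Fzd2 was at least 11.3-fold higher in EpiSCs (9.23 and 9.35 in EpiSCs, against 4.25 and 4.26 in Gcnf-deficient PGCs). Among the secreted inhibitors, Sfrp2 was higher by 2.97 and Sfrp1 was lower by 2.37 on the log2 scale, and Dkk3, a Dickkopf family member, was at least 5.34-fold lower. Tcf7l1 (Tcf3), the repressor of the naive network, was higher in EpiSCs by 1.74, and Ctnnb1 (β-catenin) stood at a shared level (difference −0.14).

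Of the 19 tested members of the Nodal, activin and BMP pathway, 6 were higher and 3 were lower, beside 28.7% and 25.8% of all tested genes. Of its 16 members detected on all 4 arrays, 8 stood at a shared level, near the 47.9% of all genes. Among these 8 were Smad1, Smad2, Smad3 and Smad4, the signal transducers. The BMP targets Id1, Id2 and Id3 were higher in EpiSCs by 1.35, 1.90 and 1.32, and the ligand Bmp7 was at least 4.10-fold lower.

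Of the 11 tested genes of DNA methylation and demethylation, 4 were higher and 3 were lower in EpiSCs, beside 28.7% and 25.8% of all tested genes. All 3 lower genes were undetected in EpiSCs and so had to differ. Dnmt3l, the cofactor of de novo methylation in germ cells and ESCs, gave 5.02 and 5.66 in EpiSCs, against 13.81 and 14.14 in Gcnf-deficient PGCs, at least 256-fold lower, whereas Dnmt3b was higher as given above. Dnmt1, the maintenance enzyme, and its partner Uhrf1 stood at a shared level (differences 0.29 and −0.05). Of the 13 tested imprinted genes, 8 were higher and 4 were lower, beside the same shares of all tested genes. Grb10, a growth factor receptor adaptor, gave 13.09 and 12.95 in EpiSCs, against 7.80 and 7.96 in Gcnf-deficient PGCs, Nnat (neuronatin) was at least 10.9-fold higher in EpiSCs, and Igf2, the fetal growth factor, gave 8.17 and 8.32 in EpiSCs, against 12.21 and 11.63 in Gcnf-deficient PGCs. Xist, the RNA of X inactivation, was detected in EpiSCs (8.64 and 8.53) and in neither Gcnf-deficient (3.14 and 3.65) nor wt PGCs (3.59 and 3.25).

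Markers of other cell types are counted beside the same shares, 28.7% of all tested genes higher and 25.8% lower. Of the 14 tested endoderm genes, 11 were lower in EpiSCs and 1 was higher. Of the 11, 7 were undetected in EpiSCs and so had to differ, and of the 6 detected on all 4 arrays 4 were lower. The summed signal of the 21 with a probe was 3626 and 3845 in EpiSCs, against 14147 and 12736 in Gcnf-deficient PGCs. The basement membrane collagen Col4a1 differed by −4.18, Col4a2 was at least 17.1-fold lower and Gata6, the factor of primitive endoderm, at least 4.12-fold lower, while Gata4, Sox7 and Afp were detected on fewer than 2 arrays. Trophoblast genes were lower for 5 of 6 tested, Tfap2c among them, but 3 of these 5 were undetected in EpiSCs and so had to differ. Neural genes were higher for 3 and lower for 1 of 5 tested. Both blood and endothelial genes tested, Pecam1 and Tek, were lower, but they were undetected in EpiSCs and so had to differ. Of the 10 housekeeping genes tested, 3 were higher and 2 were lower, but each of the higher ones (Actb, Rplp0 and Ywhaz) had another probe with a different call. Fibroblast genes, the type of the feeder cells, summed to 4937 and 5556 in EpiSCs, against 14273 on day 15 and 5704 on day 12 in Gcnf-deficient PGCs, and Col1a1, Col1a2 and Col3a1 were detected on fewer than 2 arrays. Of the 9 tested, 4 were lower in EpiSCs and 3 were higher: Dcn (decorin), at least 4.80-fold (8.09 and 8.02 in EpiSCs, against 3.77 and 3.34 in Gcnf-deficient PGCs), Twist1, by 1.86, and Vim (vimentin), by 1.82, whose call was lost without EpiSC replicate 2 (adjusted p = 0.0525). Immediate early genes summed to 9057 and 7006 in EpiSCs, against 23379 on day 15 and 10783 on day 12 in Gcnf-deficient PGCs. The part of such cells or of handling in the differences of the germ cell, naive and primed genes was not tested.

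The 12 genes with the largest fitted differences in each direction were all undetected on the dimmer side, so that their order rests on signals below detection. By the bounds, Klf2 and Tfap2c (at least 114-fold and 78.4-fold) exceed Lgals3, Erdr1 and Rbmxl2 of the 12 lower genes. Among these 12, Dppa5a, Dppa4, Ooep, Esrrb, Jam2, Tcl1, Dnmt3l and Fbxo15 belong to the lists above. Lgals3 (galectin-3) was outside them, at 3.13 and 2.42 in EpiSCs, against 10.73 and 11.77 in Gcnf-deficient PGCs (at least 38.9-fold lower). Erdr1, Rbmxl2 and Gstp2 were also among the 12, but each has near-identical copies that share sequence, so that their signals are uncertain. On the higher side, Npy (neuropeptide Y) gave 12.64 and 12.45 in EpiSCs, against 3.34 and 3.63 in Gcnf-deficient PGCs, at least 108-fold higher in EpiSCs. Slitrk5, a neuronal transmembrane protein gene, gave 11.50 and 11.46 in EpiSCs, against 2.95 and 4.23 in Gcnf-deficient PGCs. Wt1, a zinc finger factor of the gonadal ridge, gave 10.92 and 10.61 in EpiSCs, against 4.83 and 3.91 in Gcnf-deficient PGCs. Fst (follistatin) was the only other gonadal somatic gene tested, and it did not pass. Fjx1, Slc35d3, Csn3, Rem2, Zfp608, Rbmx and Prtg completed the 12, at least 8.20-fold to 34.4-fold higher.

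Set against wt PGCs, the Gcnf-deficient PGCs had 2 of 10869 tested probes past the test (0.0184%), with 1072 at an unadjusted p under 0.05, so that the design called few genes between genotypes. Both genes were lower in EpiSCs than in Gcnf-deficient PGCs, Olig1 being undetected and Zfp330 detected in EpiSCs. Olig1, an oligodendrocyte factor, gave 3.33 and 4.07 in EpiSCs and 11.78 and 11.89 in Gcnf-deficient PGCs, where wt PGCs gave 5.05 and 4.66. Undifferentiated ESCs, with 1 array each, gave 10.58 where Gcnf-deficient and 3.23 where wt, so that the Olig1 signal was not particular to the PGCs. Zfp330, a nucleolar zinc finger protein gene named here after its values were seen, gave 10.11 and 10.35 in EpiSCs and 11.31 and 11.20 in Gcnf-deficient PGCs, where wt PGCs gave 2.46 and 3.45. Gcnf-deficient PGCs thus shared a detected Zfp330 signal with EpiSCs, 1.02 lower in EpiSCs (adjusted p = 0.0061), and did not share Olig1. The 2 comparisons use the same Gcnf-deficient arrays.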

How the data were processed

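RNA of 8 samples was hybridized to Illumina MouseRef-8 v2 bead arrays. The authors read the arrays with BeadStudio 3.2. One deposited table holds each probe's signal intensity, not normalized, and a deposited detection p-value for each probe and array. A further deposited table holds the authors' log2 values, which had been corrected by the RMA background model and quantile-normalized. Starting from the signal intensity, the same steps were repeated over the 8 arrays (R 4.3.3, limma 3.58.1), and the result correlated with the authors' values at r of at least 0.9978 on each array. Of the probes, 23978 have 1 gene symbol in the platform annotation and 1719 have none. The 4 arrays detected 9939 to 10654 probes each, with median raw signals from 137.55 to 152.19, and the number of arrays limits the precision.

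EpiSCs were compared with Gcnf-deficient PGCs with limma (lmFit, eBayes; 2 arrays against 2), adjusted over all tested probes. The labels and methods do not say whether arrays of a group came from separate cultures, so p-values measure only the spread between these samples, which may be technical. An exact permutation test of 2 against 2 cannot go below p = 0.333 (two-sided) and was not used. The members, the 22 gene lists and the tests were chosen with earlier results of these data known. Named genes were those the paper names, the 5 markers, the 12 largest differences in each direction, members of the germ cell, core, naive and primed lists past the test or over 4-fold apart with up to 4 at a shared level, and up to 3 in each direction of other lists; a few undetected markers and shared signalling genes were added after their values were seen. A gene was represented by its brightest probe. Of 34 named genes with several tested probes, 4 had probes with different calls (Actb, Ccn1, Rplp0 and Ywhaz), opposite for 2 of them (Actb and Ywhaz). Promoter windows were RefSeq's, from 250 bases before to 50 after each start (GRCm38.p6), searched with Python 3.11.15.

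Alternatives were the authors' values, other background corrections (neqc, normexp with an offset of 50, none), median scaling, 4 arrays normalized alone, other detection filters and limits, an intensity trend, each day as its own group, 1 probe per gene, and leaving out each array.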

Additional observations from a re-analysis of the deposited data

Results flagged for a closer look

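In 2 named genes EpiSCs differed from the 2 days of Gcnf-deficient PGCs in opposite directions. The EpiSC mean of Hspa2, a testis-enriched chaperone, was −0.41 from day 15 and 0.33 from day 12. That of L1td1, an RNA-binding protein of pluripotent cells, was 0.20 from day 15 and −0.06 from day 12. With 1 array for each day the difference between days was not tested, and both genes stood at a shared level.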

How the results depend on the processing

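Without EpiSC replicate 1 the test passed 3985 probes in place of 5999, and leaving out each of the 4 arrays gave 3985 to 5738 (1986 to 3078 higher, 1999 to 2660 lower). Probes over 4-fold apart numbered 553 with an offset of 50, 384 with no background correction, 444 when detected on all 4 arrays and 3966 at a 2-fold limit, in place of 1593, and 1580 to 1667 with 1 array left out. Probes at a shared level numbered 6203 with no background correction and 543 within a band of 0.5 in log2, in place of 4084, and 2631 to 3907 with 1 array left out. Limiting the test to probes detected on all 4 arrays, which removes those seen on 1 side, left 6 lower germ cell genes in place of 31, 5 lower naive genes in place of 23 and 7 higher primed genes in place of 15. With 1 array left out these counts were 28 to 31, 22 to 23 and 14 to 15, the germ cell genes higher in EpiSCs 3 to 5, and the core genes called 7 to 10. A group left with 1 array is assumed to vary like the other. Median scaling moved the median difference of the tested probes to 0.17 in place of 0.06 and the share of calls that were higher to 58.0% in place of 52.7%. Of 145 named genes called, 124 kept their call under each of the 15 settings in which their probe was tested, and none turned its direction. Genes undetected on 1 side were not tested in the setting that required detection on all 4 arrays. Without a detection filter Otx2, Eras, Socs3, Rif1, Zfp281, Tead2 and Piwil1 lost their calls (adjusted p between 0.0667 and 0.188). No paired analysis was possible because the groups compared share fewer than 2 replicate numbers. Signals near the lowest detected signal limit the folds given as at least.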
